A study of Mus musculus with 11 samples.

Results

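Replication and mitosis genes were followed in 3 tissues of the mouse embryo. They are a list of 49 cell cycle genes, 24 of S phase and 25 of G2 and mitosis, drawn from 19938 genes with a probe of their own on the array. A probe that carries the gene's symbol alone was found for 48, all 24 S phase genes and 24 of the G2 and mitosis genes. Cyclin B1 (Ccnb1) had no such probe and has no value here.

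The 11 arrays came from CD1 outbred embryos at E8.5, for which the labels name no mutation and no agent. Tissue was taken from frozen sections by laser capture: 3 arrays hold neuroepithelium, 5 neural crest and 3 paraxial mesoderm. The series text speaks of captured single cells, whereas no label gives the number of cells or the embryo behind an array. The p-values below therefore measure the spread between these arrays, which may be technical, and they would be too small if arrays of a tissue shared an embryo. In captured tissue, fewer cells in a cycle phase and less RNA per cell cannot be told apart.

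The files give linear ratios, each relative to a reference belonging to the probe, so a ratio near 1 is found both for a gene silent everywhere and for a gene equally active everywhere. For 26158 of 28856 probes the ratio was 1 (within 1e-05) on at least 1 of 8 arrays. Neuroepithelium array 2 and neural crest arrays 3 and 5 were at 1 for 3, 5 and 2 probes alone. A gene here is called high on an array at 4-fold or more above its reference and low at 4-fold or more below it. Ratios hold no expression level, and levels of different genes were not compared.

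Cells copy their DNA in S phase and separate the copies in mitosis, and many of the genes for each step are transcribed in a burst just before or during that step. S phase genes are commonly driven by E2F factors, which act as the retinoblastoma protein is inactivated. Genes of G2 and mitosis are held back early in the cycle through an element called the cell cycle homology region, and are activated with the help of NF-Y at CCAAT boxes. Embryonic neuroepithelium, crest and mesoderm all divide fast at this stage, and in the neuroepithelium nuclei travel along the cell's length as the cycle proceeds.

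The promoters show what separates the S phase list from the G2 and mitosis list in sequence. Windows of 300 bases around the start site, 250 before and 50 after, were taken from RefSeq (GRCm38.p6) for 20 S phase genes and 21 G2 and mitosis genes. An E2F site (TTTCCCGC, TTTCGCGC, TTTGCCGC or TTTGGCGC, either strand) was found in 9 of the 20 S phase genes (45%) and in 1 of the 21 mitotic genes (4.76%), the exception being Cdk1, against 2.6% of 27025 genes. A cell cycle homology region (TTTGAA or TTTAAA, either strand) was found in 18 of 21 mitotic genes (85.7%), 7 of 20 S phase genes (35%) and 30.6% of all genes. A CCAAT box (CCAAT, either strand) was found in 18 of 21 mitotic genes, 12 of 20 S phase genes (60%) and 41.1% of all genes. Homology region and CCAAT box stood together in 17 of 21 mitotic genes (81%), 4 of 20 S phase genes (20%) and 13.4% of all genes. The letters of different motifs can overlap, and some E2F matches overlap each other, as in Mcm5 and Mcm6. A match is a string of letters, not a site shown to be bound.

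**Figure D1:**
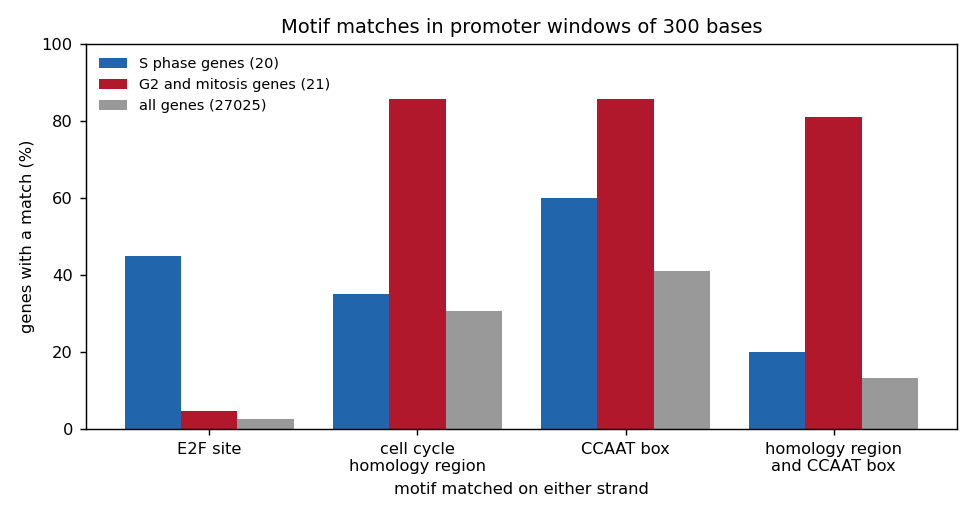
Share of genes (%) with at least 1 match to each motif in a window of 300 bases around the start site, for S phase genes (blue), G2 and mitosis genes (red) and all genes with a window (grey). E2F sites stand out in the S phase genes (45% against 2.6% of all genes), and the pairing of homology region and CCAAT box in the mitotic genes (81% against 13.4%).

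The 250 bases before the start site are shown for 6 members that were low on at least 1 array and hold a match there. They are read 5′ to 3′ on the gene's strand from GRCm38.p6, with the motif matches in capitals. Positions are those of a match's first base, counted from 0 at the start site. The S phase genes come first: Mcm6 holds 3 E2F matches, the first pair overlapping, and 2 CCAAT boxes on the opposite strand (ATTGG), and Rfc3 has an E2F match at -10.
Mcm6, chr1:128359706-128359955, minus strand: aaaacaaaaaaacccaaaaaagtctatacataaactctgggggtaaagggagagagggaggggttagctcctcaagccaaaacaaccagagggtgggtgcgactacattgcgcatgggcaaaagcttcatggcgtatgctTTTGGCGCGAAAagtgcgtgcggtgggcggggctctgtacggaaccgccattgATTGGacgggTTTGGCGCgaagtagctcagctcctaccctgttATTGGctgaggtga
Rfc3, chr5:151651209-151651458, minus strand: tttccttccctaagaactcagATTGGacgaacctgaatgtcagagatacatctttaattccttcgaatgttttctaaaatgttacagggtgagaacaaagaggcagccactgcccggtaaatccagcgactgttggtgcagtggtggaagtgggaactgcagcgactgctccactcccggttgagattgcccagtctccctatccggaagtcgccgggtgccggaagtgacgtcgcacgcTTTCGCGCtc
Each of the mitotic genes shown holds both a homology region and a CCAAT box. The genes shown are a choice, and not every low mitotic gene holds both in its window. Of those left out, Aurka holds both, Birc5 a homology region at -220 but no CCAAT box, and Mad2l1 and Nusap1 neither. In Cdc20 the homology region starts 18 bases before the start site (position -18), between CCAAT boxes at -53 and -8. Ccnb2 carries CCAAT boxes at -87, -54 and -21 and a homology region further out, at -167. Plk1 holds TTTAAA at -89 and -29 and a CCAAT box at -14. Cenpa holds TTTAAA at -17 and CCAAT boxes, on the opposite strand, at -109 and -86. Past the bases shown but within the window, TTTGAA also stands at 4 in Ccnb2, 30 in Plk1 and 16 in Cenpa. Rfc3 has a further E2F match at 0.
Ccnb2, chr9:70421555-70421804, minus strand: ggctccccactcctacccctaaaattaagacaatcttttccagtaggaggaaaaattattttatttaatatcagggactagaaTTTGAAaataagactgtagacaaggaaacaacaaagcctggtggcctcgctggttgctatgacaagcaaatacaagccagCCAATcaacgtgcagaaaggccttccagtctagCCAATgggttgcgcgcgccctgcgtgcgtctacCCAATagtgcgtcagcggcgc
Plk1, chr7:122159185-122159434, plus strand: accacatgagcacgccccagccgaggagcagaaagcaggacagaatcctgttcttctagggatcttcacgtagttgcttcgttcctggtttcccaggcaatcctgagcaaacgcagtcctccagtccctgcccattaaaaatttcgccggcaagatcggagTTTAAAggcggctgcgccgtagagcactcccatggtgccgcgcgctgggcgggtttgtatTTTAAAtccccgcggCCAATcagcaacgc
Cenpa, chr5:30666636-30666885, plus strand: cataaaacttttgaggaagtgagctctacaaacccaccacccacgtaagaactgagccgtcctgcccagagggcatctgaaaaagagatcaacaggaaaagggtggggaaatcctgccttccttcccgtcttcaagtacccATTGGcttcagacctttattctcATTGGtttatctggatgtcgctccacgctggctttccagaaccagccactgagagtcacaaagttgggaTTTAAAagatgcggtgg
Cdc20, chr4:118437344-118437593, minus strand: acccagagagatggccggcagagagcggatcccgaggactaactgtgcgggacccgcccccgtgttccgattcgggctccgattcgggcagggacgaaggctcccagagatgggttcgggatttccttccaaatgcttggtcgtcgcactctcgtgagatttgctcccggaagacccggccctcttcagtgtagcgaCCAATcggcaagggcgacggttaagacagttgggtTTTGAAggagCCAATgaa

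The members stood far from their references on single arrays of every tissue. Of the 48 genes, 41 (85.4%) were high or low on at least 1 array, against 24.9% of all genes. High on some array were 27 of 48 (21.7% of all genes), low on some array 17 of 48 (4.77%), and 3 (Mcm7, Rfc3 and Nusap1) were both. Only 4 stayed within 2-fold of their reference throughout (71.8% of all genes did): the proliferation antigen Mki67 (0.961 to 1.12), the polymerase subunit Pola1 (0.943 to 1.04), the licensing factor Cdc6 (0.906 to 1.51) and the cytokinesis factor Ect2 (0.952 to 1.32). Mcm3, Mcm5 and the DNA ligase Lig1 passed 2-fold on some array and 4-fold on none. These counts describe the list and were not tested.

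**Figure D2:**
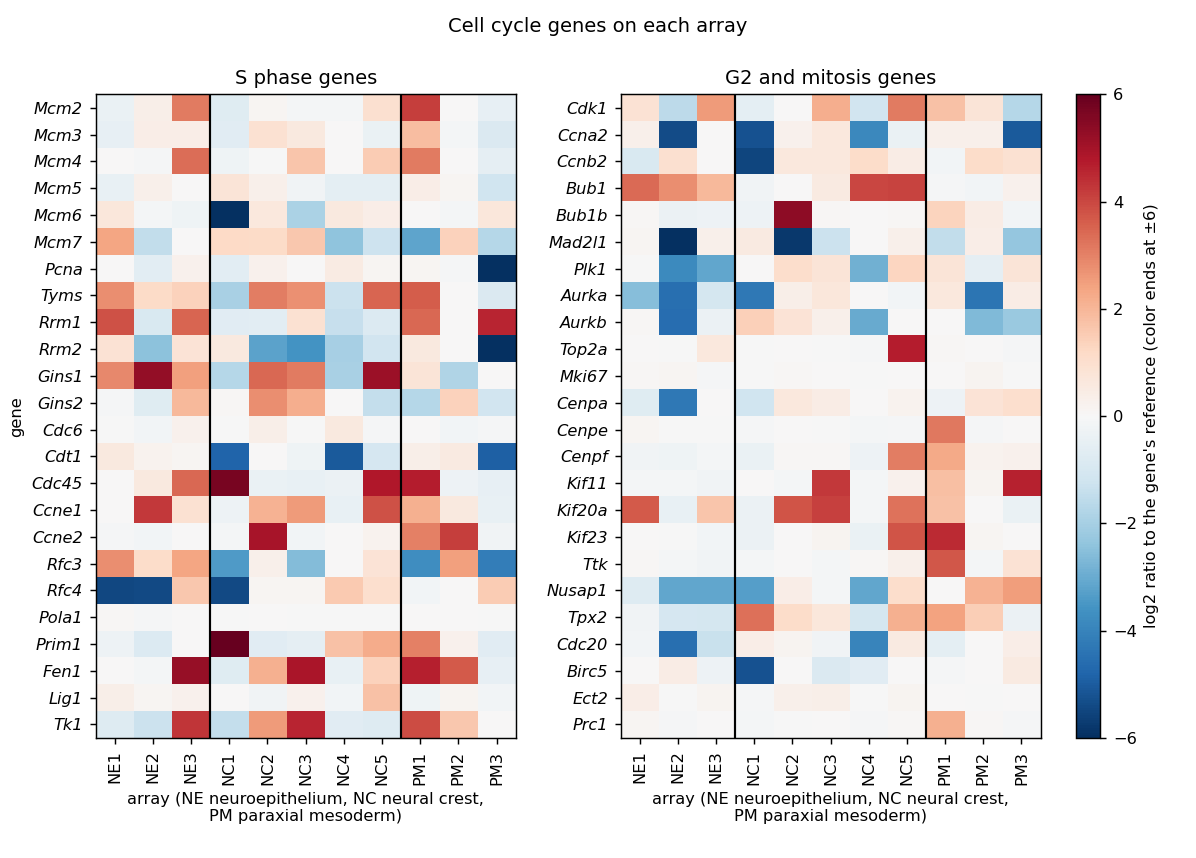
Log2 ratio to the gene's reference for 24 S phase genes (left) and 24 G2 and mitosis genes (right) on each of the 11 arrays, with tissues parted by black lines and red above, blue below the reference. High and low entries are scattered over the arrays of every tissue, and deep low entries of mitotic genes gather on neuroepithelium array 2 (8 of 24).

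Across 264 readings each, S phase genes were high in 49 (18.6%) and low in 18 (6.82%), and mitotic genes were high in 27 (10.2%) and low in 27 (10.2%). Over all genes 4.46% of readings were high and 1.15% low. The readings of a gene share a probe and those of an array share a sample, so no test was made of these shares.

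The arrays of neuroepithelium differed in the balance of the lists. On array 1, 5 S phase and 2 mitotic genes were high (3.69% of all genes were) and 1 of each list was low (0.757%). On array 2, 2 S phase genes and 1 mitotic gene were high (2.91%), while 2 S phase and 8 mitotic genes were low (2.03%). On array 3, 8 S phase genes and 1 mitotic gene were high (5.63%), and 0 S phase and 2 mitotic genes were low (0.507%). Among the members, array 2 was thus marked by low mitotic genes and array 3 by high S phase genes.

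The crest arrays ranged from mostly low to mostly high. Array 1 had 2 S phase genes and 1 mitotic gene high (2.06%), and 4 and 5 low (2.52%). Array 4 was alike, with 0 and 1 high (2.06%) and 2 and 5 low (1.49%). Arrays 2 and 3 had more high S phase than high mitotic genes: array 2 had 7 and 2 high (5.81%) with 1 of each low (0.366%), and array 3 had 6 and 3 high (5.34%) with 2 and 0 low (0.692%). On array 5, 5 S phase and 7 mitotic genes were high (7.52%) and 0 members were low (0.336%). No other array had as many high mitotic genes.

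In paraxial mesoderm, array 1 held the most high members of the series, 10 S phase and 6 mitotic genes (8.11% of all genes were high there), with 2 and 0 low (0.542%). Array 2 had 3 and 1 high (4.03%) and 0 and 2 low (1.1%). Array 3 had 1 and 2 high (1.91%) and 4 and 3 low (2.27%). All 8 measured markers of primitive erythrocytes were high on mesoderm array 1 (summed ratio 674, against 7.68 to 8.76 on the other arrays), and their part in its high members was not tested.

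The arrays with the most low members also stood apart over all genes. Neuroepithelium array 2, crest arrays 1 and 4 and mesoderm array 3 had 10, 9, 7 and 7 low members, against 0 to 2 on each other array. Over all genes they had the fewest high genes (580, 410, 410 and 381, against 735 to 1617) and the most low genes (405, 503, 297 and 452, against 67 to 220). The part of this array-wide pattern in the members' values was not tested.

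**Figure D3:**
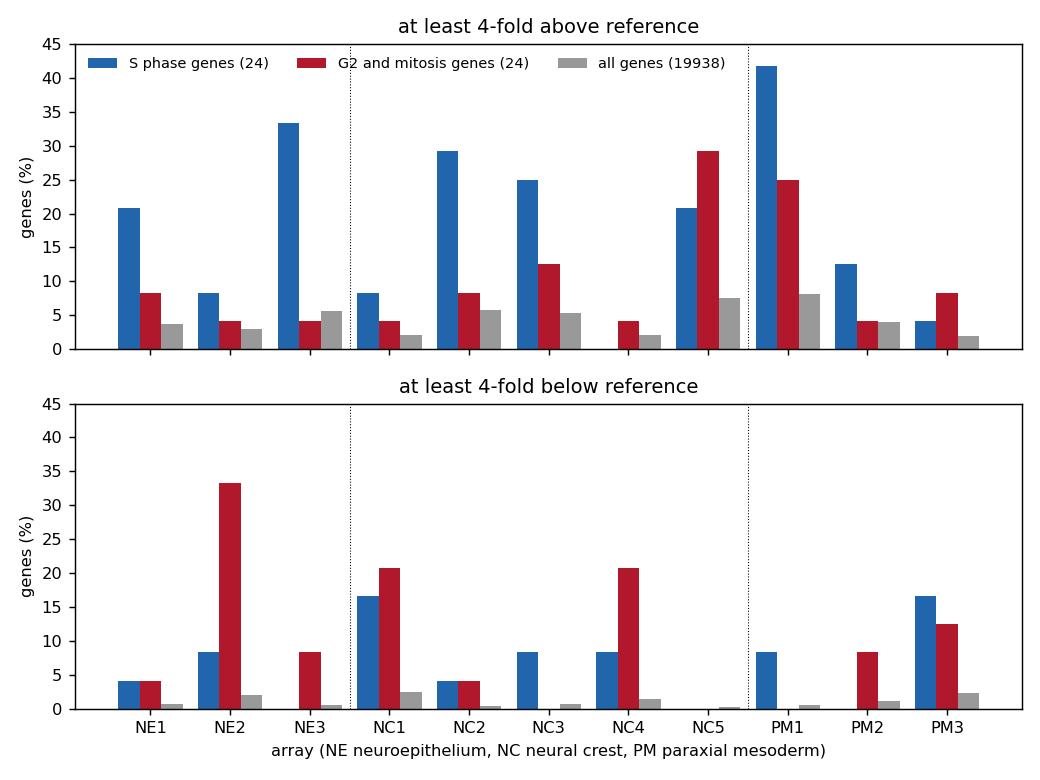
Share of genes (%) at least 4-fold above (top) or below (bottom) their reference on each array, for S phase genes (blue), G2 and mitosis genes (red) and all genes (grey). The tallest bars are S phase genes high on mesoderm array 1 (10 of 24) and neuroepithelium array 3 (8 of 24), and mitotic genes low on neuroepithelium array 2 (8 of 24).

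Set against each other on the log2 scale, the medians of the lists differed little on most arrays. The S phase median minus the mitotic median was -0.04, 0.22 and 0.96 in neuroepithelium, -0.31, 0.20, -0.17, -0.03 and 0.01 in crest, and 0.21, -0.06 and -0.51 in mesoderm. Neuroepithelium array 3 leaned furthest to S phase and mesoderm array 3 furthest to mitosis. A median hides members that are far off. The difference of the means was 0.23, 1.49 and 1.66 in neuroepithelium, 0.32, 0.46, 0.08, 0.15 and -0.33 in crest, and 0.29, 0.57 and -1.03 in mesoderm. The sign differed from that of the medians on 6 arrays (neuroepithelium 1, crest 1, 3, 4 and 5 and mesoderm 2). By the mean, S phase genes stood above mitotic genes on all 3 neuroepithelium arrays, and crest array 5 and mesoderm array 3 were the exceptions among the others. Averaged over a tissue's arrays, the difference of medians was 0.38 in neuroepithelium (0.09 without array 3), -0.06 in crest (0.00 without array 1) and -0.12 in mesoderm (0.07 without array 3).

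**Figure D4:**
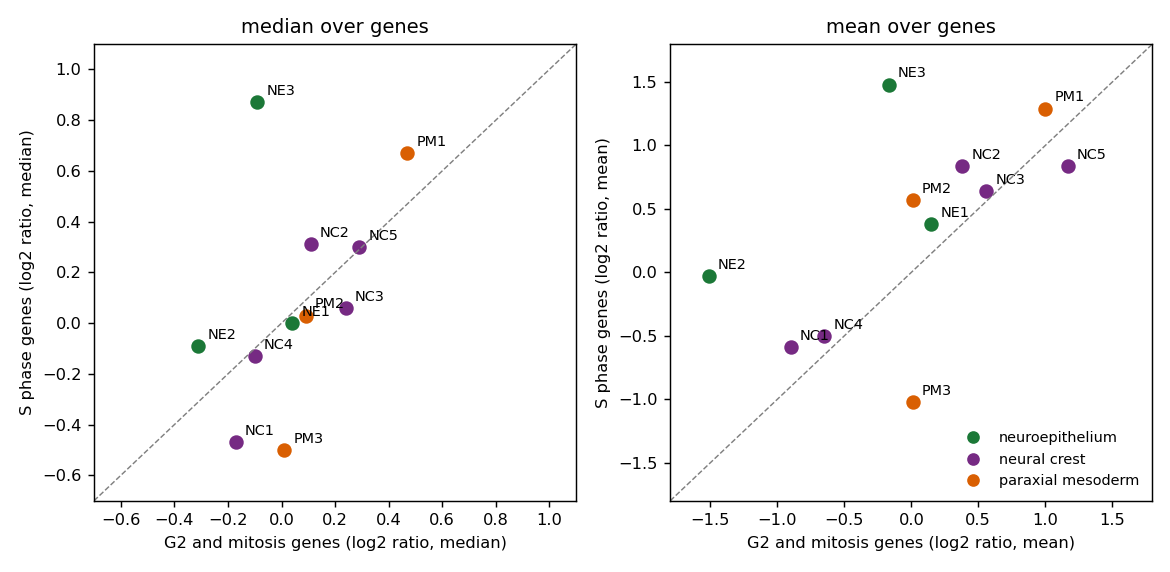
S phase genes against G2 and mitosis genes on each array, as the median (left) and mean (right) log2 ratio over 24 genes each, colored by tissue, with the dashed line marking equal values. Neuroepithelium array 3 lies above the line in both panels (0.96 and 1.66) and mesoderm array 3 below it (-0.51 and -1.03), while neuroepithelium array 2 leaves the line clearly in the mean alone (1.49).

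The replicative helicase is a ring of the 6 subunits Mcm2 to Mcm7, which unwinds DNA at the fork. Mcm2 had ratios of 0.749, 1.26 and 8.74 in neuroepithelium, 0.597, 1.07, 0.919, 0.926 and 1.96 in crest and 17.7, 1.02 and 0.707 in mesoderm. It was high on neuroepithelium array 3 and mesoderm array 1, and Mcm4 was high on the same arrays (10.1 and 8.71). Mcm6 had 1.61, 0.929 and 0.832 in neuroepithelium, 0.0137, 1.57, 0.271, 1.48 and 1.31 in crest and 1, 0.913 and 1.62 in mesoderm. It was low on crest array 1 alone. Mcm7 ran from 0.112 on mesoderm array 1 to 5.18 on neuroepithelium array 1, and Mcm3 (0.551 to 3.62) and Mcm5 (0.43 to 1.72) were never 4-fold off. Subunits of the ring thus differed in which arrays stood out.

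The helicase is loaded by Cdc6 and Cdt1 and switched on by Cdc45 and the GINS proteins. Cdt1 had 1.48, 1.17 and 1.09 in neuroepithelium, 0.0353, 1, 0.836, 0.0301 and 0.499 in crest and 1.27, 1.45 and 0.033 in mesoderm. It was low on crest arrays 1 and 4 and mesoderm array 3, and every neuroepithelium array lay above every crest array. Cdc45 had 1, 1.5 and 11 in neuroepithelium, 51.8, 0.764, 0.725, 0.788 and 28.3 in crest and 26.2, 0.808 and 0.713 in mesoderm. Its high arrays fell in all 3 tissues. Gins1 had 7.3, 38.2 and 5.55 in neuroepithelium, 0.31, 11, 8.55, 0.259 and 35.2 in crest and 1.69, 0.282 and 1 in mesoderm. It was high on every neuroepithelium array and 3 crest arrays and on 0 mesoderm arrays. Gins2, its partner in the complex, was high on crest arrays 2 (7.02) and 3 (4.5) alone.

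Cyclins E1 and E2 (Ccne1, Ccne2) drive entry into S phase with Cdk2. Ccne1 had 1, 19.2 and 1.86 in neuroepithelium, 0.808, 4.18, 5.89, 0.728 and 13.9 in crest and 4.37, 1.51 and 0.744 in mesoderm. Ccne2 had 0.95, 0.9 and 1.03 in neuroepithelium, 0.914, 31.1, 0.884, 1 and 1.15 in crest and 8.16, 17.6 and 0.871 in mesoderm. Both were high on crest array 2 and mesoderm array 1, and on no other array together.

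At the fork, Pcna is the sliding clamp and Rfc3 and Rfc4 belong to the complex that loads it. Pcna stayed at 0.637 to 1.39 on all arrays but mesoderm array 3, where it stood at 0.01, the lowest ratio deposited. Bub3, outside the members, also read 0.01, on neuroepithelium array 2 and crest array 4. The value may thus be a lower limit of the deposited ratios, which leaves the size of the Pcna drop uncertain. A second Pcna probe also read 0.01 on mesoderm array 3. It followed the first closely elsewhere (0.64 against 0.637 on neuroepithelium array 2), so it may not be an independent reading. Rfc3 had 6.95, 2.17 and 5.2 in neuroepithelium, 0.0941, 1.23, 0.164, 1 and 1.79 in crest and 0.0758, 5.49 and 0.0566 in mesoderm. It was both high and low within mesoderm, and all neuroepithelium arrays lay above all crest arrays. Rfc4 had 0.0225, 0.0238 and 3.1 in neuroepithelium, 0.0233, 1.07, 1.07, 2.98 and 1.98 in crest and 0.905, 1 and 2.85 in mesoderm. Its low arrays were neuroepithelium 1 and 2 and crest 1, and of these Rfc3 was low on crest array 1.

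Prim1 lays the RNA primer, Fen1 trims it and Lig1 seals the nick. Prim1 had 0.801, 0.57 and 1 in neuroepithelium, 104, 0.628, 0.693, 3.34 and 4.65 in crest and 8.03, 1.21 and 0.618 in mesoderm. Its ratio on crest array 1 was the highest of any member. Fen1 had 1, 0.933 and 37.4 in neuroepithelium, 0.6, 4.41, 30, 0.736 and 2.59 in crest and 25.6, 13 and 0.711 in mesoderm. Lig1 reached 3.4 on crest array 5 and lay at 0.834 to 1.28 elsewhere.

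Nucleotides for replication come from Tyms and Tk1, which supply thymidylate, and from ribonucleotide reductase, built of Rrm1 and Rrm2. Tk1 had 0.581, 0.404 and 19.7 in neuroepithelium, 0.37, 5.88, 24, 0.62 and 0.58 in crest and 15.3, 3.06 and 1 in mesoderm. Its 4 high arrays were also high for Fen1. A second Tk1 probe was high on neuroepithelium array 3 (5.73), crest array 3 (6.56) and mesoderm array 1 (4.38), but read 1.01 on crest array 2 and 13.7 on mesoderm array 3, and was low on neuroepithelium array 1 (0.219) and crest array 1 (0.196), so the probes disagreed on those 4 arrays. Rrm1 had 14.3, 0.53 and 11.4 in neuroepithelium, 0.618, 0.646, 1.86, 0.386 and 0.57 in crest and 11, 1 and 24.1 in mesoderm, high on 0 crest arrays. Rrm2 had 1.81, 0.181 and 1.79 in neuroepithelium, 1.51, 0.109, 0.0832, 0.253 and 0.45 in crest and 1.5, 1 and 0.0144 in mesoderm. On mesoderm array 3 the large subunit gene Rrm1 was at its highest and the small subunit gene Rrm2 at its lowest. Tyms ran from 0.263 to 12.4 and was high on 5 arrays.

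Cdk1 with cyclin A2 (Ccna2) and B cyclins brings cells into mitosis. Ccna2 had 1.23, 0.0242 and 1 in neuroepithelium, 0.027, 1.21, 1.55, 0.0685 and 0.76 in crest and 1.23, 1.24 and 0.0304 in mesoderm. It was low on the same 4 arrays that held the most low members, and near its reference on the rest. Ccnb2 had 0.533, 1.94 and 1 in neuroepithelium, 0.0219, 1.55, 1.54, 2.16 and 1.35 in crest and 0.907, 2.17 and 1.89 in mesoderm, low on crest array 1 alone. Cdk1 was high on neuroepithelium array 3 (5.89) and crest arrays 3 (4.46) and 5 (8.74), and its lowest ratio was 0.301.

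The mitotic kinases Plk1, Aurka and Aurkb and the Aurora B partner survivin (Birc5) were each low on some array and high on 0 arrays. Plk1 had 0.99, 0.0711 and 0.114 in neuroepithelium, 1, 2.05, 1.7, 0.134 and 2.41 in crest and 1.72, 0.696 and 1.69 in mesoderm. Aurka had 0.17, 0.044 and 0.479 in neuroepithelium, 0.0514, 1.28, 1.62, 1 and 0.894 in crest and 1.56, 0.0477 and 1.36 in mesoderm. Aurkb had 1.06, 0.0416 and 0.792 in neuroepithelium, 2.71, 1.79, 1.23, 0.124 and 1.01 in crest and 1, 0.158 and 0.217 in mesoderm. All 3 kinases were low on neuroepithelium array 2. Birc5 was low on crest array 1 (0.0264) and lay at 0.555 to 1.44 on the rest.

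The spindle checkpoint delays chromosome separation until every kinetochore is attached, and Cdc20 is the activator it restrains. Bub1 had 10.5, 6.83 and 3.81 in neuroepithelium, 0.872, 1, 1.43, 16.2 and 16.7 in crest and 0.963, 0.907 and 1.2 in mesoderm. Every neuroepithelium array lay above every mesoderm array, and crest arrays fell on both sides. Its relative Bub1b was high on crest array 2 (41.3) and lay at 0.774 to 2.55 elsewhere. Mad2l1 had 1.08, 0.0114 and 1.25 in neuroepithelium, 1.45, 0.0178, 0.415, 1 and 1.23 in crest and 0.356, 1.3 and 0.203 in mesoderm. Cdc20 had 0.905, 0.0435 and 0.397 in neuroepithelium, 1.3, 1.11, 0.864, 0.0638 and 1.43 in crest and 0.666, 1 and 1.3 in mesoderm. Mad2l1 and Cdc20 were thus both low on neuroepithelium array 2, and the checkpoint kinase Ttk was high on mesoderm array 1 alone (13.2).

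The 4 motor genes were each high on some array and low on 0 arrays. Kif11, the motor that pushes spindle poles apart, had 0.913, 0.924 and 0.877 in neuroepithelium, 1, 0.93, 18.8, 0.928 and 1.18 in crest and 3.46, 1.11 and 24.2 in mesoderm. Kif20a, which acts in cytokinesis, had 12.7, 0.733 and 3.19 in neuroepithelium, 0.78, 13.7, 17.2, 0.922 and 9.67 in crest and 3.38, 1 and 0.759 in mesoderm. Kif23, of the central spindle, had 1, 0.992 and 0.897 in neuroepithelium, 0.786, 1, 1.12, 0.768 and 13.7 in crest and 22.6, 1.09 and 1.02 in mesoderm. Cenpe, a kinetochore motor, was high on mesoderm array 1 alone (8.85). Each motor had its own set of high arrays, and mesoderm array 1 was high for Kif23 and Cenpe.

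Among spindle and chromosome genes, Nusap1, a microtubule-bundling protein, had 0.594, 0.116 and 0.116 in neuroepithelium, 0.102, 1.32, 0.91, 0.115 and 2.05 in crest and 1, 4.3 and 5.75 in mesoderm. All mesoderm arrays lay above all neuroepithelium arrays. The spindle assembly factor Tpx2 was high on crest arrays 1 (9.88) and 5 (4.39) and mesoderm array 1 (5.4), and Prc1, which bundles the central spindle, on mesoderm array 1 (4.44). The centromeric histone Cenpa was low on neuroepithelium array 2 (0.0516) and lay at 0.436 to 2.03 elsewhere. The kinetochore protein Cenpf had 0.864, 0.837 and 0.913 in neuroepithelium, 0.771, 1.05, 1.06, 0.82 and 8.29 in crest and 4.79, 1.15 and 1.2 in mesoderm. Top2a, which untangles DNA, was high on crest array 5 (26) and at 0.954 to 1.57 elsewhere, whereas its second probe read 1.2 on crest array 5.

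The first comparison set neural crest against neuroepithelium, from which crest cells leave. Cdt1 and Rfc3 were lower on every crest array than on every neuroepithelium array (2 of 48 members, 1.53% of all genes). Kif11 was higher on every crest array (1 of 48, 1.45%), a share near that of all genes and so not a result about the members. Its margin was narrow (0.928 and 0.93 on crest arrays 4 and 2 against 0.924 at most in neuroepithelium). Cdt1 differed by -2.53 on the log2 scale (SE 1.64, -2.23 ± 2.50 in crest against 0.31 ± 0.23 SD, n = 5 and 3) and Rfc3 by -3.07 (SE 1.62, -0.97 ± 1.90 against 2.10 ± 0.87). The margin of Cdt1 was narrow too (1 on crest array 2 against 1.09 on neuroepithelium array 3), and its difference was -1.88 without crest array 1 and -1.83 without crest array 4. That of Rfc3 was -2.46 without crest array 1. In limma 0 of 48 members passed the adjusted threshold of 0.05 (0.0301% of all genes did), 0 reached an unadjusted p under 0.05, and every member had an adjusted p of 1. The median difference was -0.11 over S phase genes, 0.70 over mitotic genes and 0.00 over all genes. Of all genes 71.8% stayed within 2-fold of their reference throughout, against 8.33% of members. The value over all genes is therefore no baseline for the lists, here or below. The mean log2 ratio of the mitotic genes was -1.51 on neuroepithelium array 2, against 0.15 and -0.17 on arrays 1 and 3. The median difference without array 2 was not computed. The surface ectoderm markers stood out beside this: of 10, 4, 6 and 6 were high on the neuroepithelium arrays (summed ratio 238 to 284) against 0 to 1 on the crest arrays (8.8 to 45.4). Their part in these differences was not tested.

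The next set crest against the mesoderm beside which crest cells migrate. Here 0 of 48 members were higher (1.46% of all genes) or lower (1.2%) on every crest array. In limma 0 members passed (0.01% of all genes), and Rrm1 alone reached an unadjusted p of 0.0378, with a log2 difference of -3.20 (SE 1.31, limma adjusted p = 1) and overlapping arrays. The median difference was 0.08 over S phase genes, -0.27 over mitotic genes and 0.00 over all genes.

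The last set mesoderm against neuroepithelium. Nusap1, Kif11, Kif23 and Cenpf were higher on every mesoderm array (4 of 48, 2.82% of all genes). The margin was narrow for Kif23 (1.02 on mesoderm array 3 against 1 on neuroepithelium array 1). It was small for Kif11 (1.11 on mesoderm array 2 against 0.924 at most in neuroepithelium) and for Cenpf (1.15 against 0.913). Gins1 and Bub1 were lower on every mesoderm array (2 of 48, 4.02%), a share near that of all genes and so not a result about the members. Nusap1 differed by 3.86 (SE 1.35, 1.54 ± 1.35 in mesoderm against -2.32 ± 1.36 SD, n = 3 each), at an unadjusted p of 0.0189 in limma and an adjusted p of 1. Gins1 differed by -3.89 (SE 1.94; -3.03 without neuroepithelium array 2, -3.15 without mesoderm array 2) and Bub1 by -2.67 (SE 1.23). For the motors the gap rested on single arrays: Kif23 differed by 1.60 (SE 1.39), but by 0.13 without mesoderm array 1, and Kif11 by 2.32 (SE 1.36), but by 1.11 without mesoderm array 3. Cenpf differed by 1.11 (SE 0.91), and by 0.44 without mesoderm array 1. In limma 0 of 48 members passed (0.015% of all genes) and 1 reached an unadjusted p under 0.05. The median difference was -0.13 over S phase genes, 0.82 over mitotic genes and -0.00 over all genes. The mitotic value again includes neuroepithelium array 2, where the mean log2 ratio of the mitotic genes was -1.51. Surface ectoderm markers were high on mesoderm arrays 2 and 3 (5 and 1 of 10) but 0 on array 1. All 8 primitive erythrocyte markers were high on mesoderm array 1, on which the Kif23 and Cenpf differences rest. The part of either marker list here was not tested. The tissue comparisons share arrays and are not independent of each other.

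**Figure D5:**
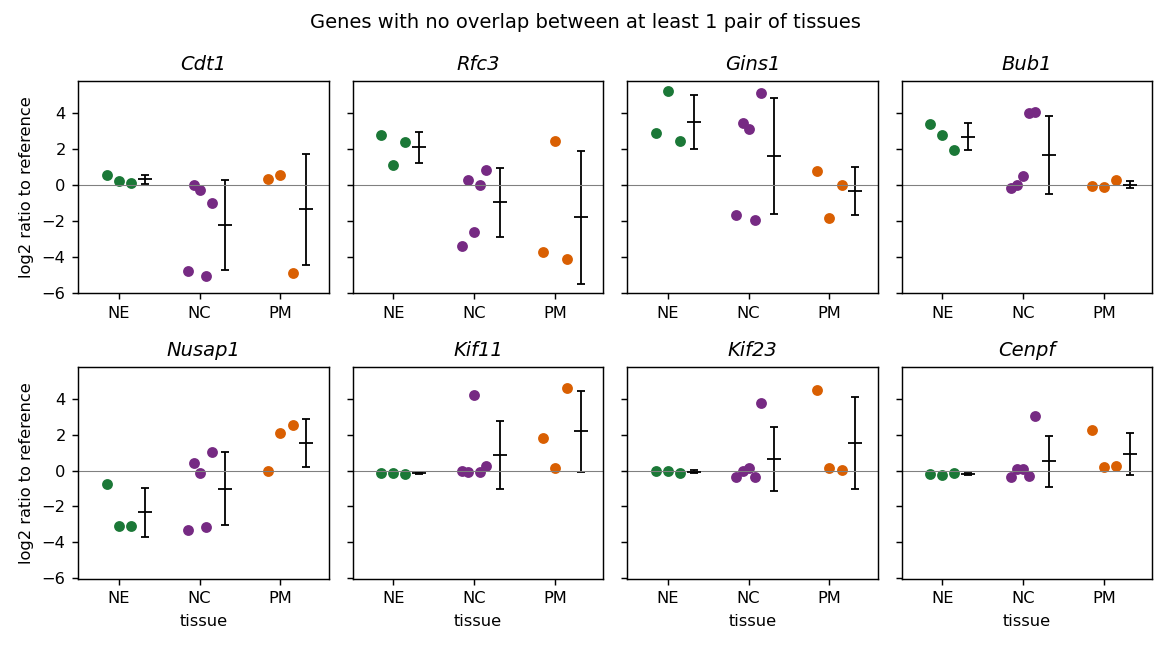
Log2 ratio to reference of 8 genes with no overlap between at least 1 pair of tissues and means at least 1 apart, with a point for each array and the mean ± SD beside it (NE neuroepithelium, NC neural crest, PM paraxial mesoderm). In Kif11, Kif23 and Cenpf the neuroepithelium points sit together just below 0 and a single high array carries much of the mesoderm mean.

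A moderated F test over the 3 tissues passed 0 of 48 members in limma (0.0301% of all genes), and Nusap1 was the only member under 0.05 before adjustment. Over the 21 settings of the fit tried for each pair of tissues, the smallest limma adjusted p of any member was 0.573. A p that misses the threshold does not show that the tissues are alike, and the number of arrays limits the precision.

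Other genes of the cycle, listed with earlier results of these data known, were also far from their references on single arrays. Of 29 further replication genes, 20 were high and 3 low on some array, and of 36 further mitosis genes 21 were high and 9 low, against 21.7% high and 4.77% low over all genes. On neuroepithelium array 3, 8 of these replication genes and 7 of these mitosis genes were high (5.63% of all genes). Their mean log2 ratios there were 1.06 and 0.96 (medians 0.06 and 0.03). The clear lean of that array to S phase among the members was therefore not seen in these further lists. Low mitosis genes of this second list numbered 9 on neuroepithelium array 2 (2.03% of all genes), 6 on crest array 4 (1.49%), 4 on crest array 1 (2.52%) and 4 on mesoderm array 2 (1.1%), and 0 or 1 on the others. Cdca8, a partner of Aurora B, was among them, with 0.0418, 0.0213 and 1.11 in neuroepithelium, 2.29, 1, 0.993, 0.0218 and 0.95 in crest and 1.34, 0.0276 and 0.0251 in mesoderm.

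Among 33 cell cycle control genes, 18 were high and 5 low on some array (21.7% and 4.77% of all genes). The Cdk1-inhibiting kinase Wee1 had the largest difference between crest and neuroepithelium (log2 3.26, SE 1.28, limma adjusted p = 1), with 0.23, 0.304 and 1 in neuroepithelium and 12.2, 4.06, 5.86, 0.344 and 9.78 in crest. Among 13 genes of cell cycle exit and arrest, 6 were high and 0 low on some array, beside the same shares of all genes. The Cdk inhibitor Cdkn1c reached 42.4 on mesoderm array 3 and lay at 0.746 to 2.6 elsewhere. The same array held the highest ratio of cyclin D1 (Ccnd1, 51.4), which promotes entry into the cycle. In limma 0 genes of these 4 lists passed in any comparison of tissues, with 0 to 2 per list and comparison at unadjusted p under 0.05.

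The tissue labels were checked against their markers. The summed ratio of 8 crest markers was 60 to 153 on crest arrays and 6.78 to 29.1 on the others, with 1 to 5 of them high on crest arrays and 0 or 1 elsewhere. On crest arrays 1 and 4 this rested on Snai1 (51 and 54.9): without it the other 7 summed to 8.96 and 10.5, below neuroepithelium arrays 2 and 3 (12.9 and 28.3). Of 6 neuroepithelium markers 0 were high on a neuroepithelium array, and of 8 paraxial mesoderm markers 0 were high on any array, so the ratios bear neither label out. The neuroepithelium marker Nes was instead high on crest array 3 (8.48), and Sox2 was at 2.7 on mesoderm array 3 and 0.887 to 1.03 elsewhere. Of 8 endothelial markers Egfl7 alone was high, on neuroepithelium array 1 (33.8) and mesoderm array 3 (8.34). The other 7 stayed within 2-fold of their reference on every array.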

How the data were processed

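The members and all gene lists were chosen with earlier results of these data known. Per the labels' protocols, laser-captured tissue was amplified and hybridised to Affymetrix arrays. Per the submitters' processing notes, RMA was used and the genome build was mm9; no version of RMA is given. Each deposited value is a linear ratio; the labels do not say how the authors derived it. Of 35557 probes, 6701 were blank and 28856 had values: 21789 carried 1 symbol, 1621 several and 5446 none. The probe with the highest mean log2 ratio stood for each of 19938 genes, and 0 columns were left unmapped.

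Log2 ratios were fitted over all genes and arrays with lmFit and eBayes in limma 3.58.1 (R 4.3.3), with Benjamini-Hochberg adjustment, two-sided, and no intensity trend, since ratios hold no intensity. The fit was tested on simulated data: of 19938 genes, 200 with an SD under 0.3 were shifted by a log2 of 3 in crest, and 200 of 200 passed against neuroepithelium, with 5 false calls. Many members vary more than that, so it does not give the power for them. Shares per list and array were counted without a test. Deviations of same-numbered arrays of different tissues correlated at -0.153 to 0.050, and those of differently numbered arrays at -0.164 to 0.169. The numbers were therefore not taken as pairs. With so few arrays per tissue, this check cannot exclude an embryo or batch shared by number.

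Members at least 4-fold off on some array, the 30 furthest off first, are given by their values per array or by range, as are members with no overlap between tissues. Nusap1 and Cenpf, outside those 30, were given in full after their values were seen. Members outside the rule are given by range. Promoter windows and coordinates are RefSeq's (GRCm38.p6), matched by symbol. Alternatives were the trend, robust moderation, probe means, centring, a 2-fold filter, limited ratios, array weights, a replicate block, fits of a pair of tissues and leaving out each array.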

Additional observations from a re-analysis of the deposited data

Results flagged for a closer look

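Within the 5 neural crest arrays, 1 array lay far from the other 4 for 12 of the 41 members tested this way. These 41 (29.3% set apart) were already 4-fold off on some array, which favours such a lone array, so the usual chance rate of about 1 in 20 does not apply. Over all 4970 genes that far off, 1750 (35.2%) were set apart in the same way, so the members' share is not a result about them. On crest array 1 the low values were those of Rfc4 (0.0233), Ccnb2 (0.0219), Aurka (0.0514) and Birc5 (0.0264). On crest array 2 Ccne2 (31.1) and Bub1b (41.3) were high and Mad2l1 (0.0178) was low. Kif11 was high on crest array 3 (18.8) and Cdc20 low on crest array 4 (0.0638). On crest array 5 Top2a (26), Cenpf (8.29) and Kif23 (13.7) were high. Groups of 3 arrays were not tested in this way.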

How the results depend on the processing

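No member passed in any comparison under any of the 20 alternatives to the fit of each pair of tissues, the replicate block included (0 members each). The same held for the F test under its 19 alternatives. The 8 named differences kept their direction in all alternatives to the pair fits. They were picked for having no overlap between tissues, so leaving out an array or limiting ratios could not reverse them. The kept direction is therefore no support for them. Their sizes moved: the Kif23 difference ran from 0.13 to 2.37 and that of Cenpf from 0.44 to 1.46. Taking the mean over members in place of the median moved the S phase minus mitosis difference to 1.12 in neuroepithelium and 0.14 in crest. Leaving out 1 array at a time kept 24 to 27 members high and 14 to 17 low on some array, a check added after seeing the data. Over all genes the counts that passed were less stable. Crest against neuroepithelium gave 6 genes, 2 with the intensity trend, 11 with those tissues alone and 5 to 19 without 1 array (14, 19 and 16 without neuroepithelium arrays 1, 2 and 3, and 11 without crest array 1). Crest against mesoderm gave 2, 0 with the trend and 1 to 43 without 1 array (4, 12 and 43 without mesoderm arrays 1, 2 and 3, 5 without crest array 1, and 1 without crest array 3 or neuroepithelium array 2 or 3). Mesoderm against neuroepithelium gave 3, 5 with those tissues alone and 3 to 39 (7, 14 and 39 without mesoderm arrays 1, 2 and 3, 10, 14 and 13 without neuroepithelium arrays 1, 2 and 3, and 5 without crest array 2). The F test gave 6, 3 with the trend and 5 to 42 (10, 18 and 42 without mesoderm arrays 1, 2 and 3, and 13, 15 and 15 without neuroepithelium arrays 1, 2 and 3). The cause was not tested. With the replicate block the counts over all genes were 6, 3, 2 and 5. Among the members 0 passed both with and without the block. Array number and the missing intensity limit every comparison.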
